A study of Sus scrofa with 30 samples.

Results

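The miR-17 family was followed in endometrium of gilts that were pregnant (P) or cyclic (C). Its members were taken from the authors' list of annotated small RNA sequences, by every name with the root mir-17, mir-18a, mir-18b, mir-19a, mir-19b, mir-20a, mir-20b, mir-93, mir-106a or mir-106b. The rule found 19 sequences, beside 854 others in the list, which carried 6 of the 10 roots: mir-17, mir-19b, mir-20a, mir-93, mir-106a and mir-106b. None of the listed sequences carried mir-18a, mir-18b, mir-19a or mir-20b. Together the 19 members held 91551 of the 77077105 reads on listed sequences.

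The miR-17 family is made from polycistronic transcripts, single RNAs that are cut into several hairpins, and its best known cluster also holds miR-18a, miR-19a, miR-19b, miR-20a and miR-92a. MYC and E2F factors drive its transcription, and its targets include CDKN1A and BCL2L11, so the family is known for favouring entry into the cell cycle and cell survival. A miRNA finds its targets mainly through the seed, the bases 2 to 8 from its 5' end, and miR-17, miR-20a, miR-93, miR-106a and miR-106b-5p share one seed whereas miR-19b carries another. The endometrium is a tissue of glands, luminal epithelium, stroma and vessels that is rebuilt in each estrous cycle, and D20 of the porcine cycle lies after regression of the corpora lutea, shortly before the next estrus.

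Small RNA was sequenced from whole endometrium of Hampshire x Duroc gilts aged 7 to 8 months from 1 herd, with 1 library per animal, 30 in all. The groups held 5 animals on day (D) 12 of pregnancy (PD12), 5 on PD16, 6 on PD20, 4 on D12 of the estrous cycle (CD12), 5 on CD16 and 5 on CD20. Pregnant gilts were inseminated after the third estrus. Conceptuses were flushed from the horns up to D16, whereas on D20 trophoblasts with embryos were dissected away, so the removal of embryonic tissue differed between days of pregnancy. PD20 endometrium was taken at implantation sites. The labels name no drug and no genetic modification. A library held 2029729 to 6402731 reads (median 3111079). Normalized reads (CPM) are reads per 1000000 reads on listed sequences after TMM scaling, 1 read being worth 0.26 to 0.59 CPM, and 3 reads, taken as the detection floor, 0.77 to 1.78 CPM.

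The sequences are shown because the members fall into groups by seed, and because several of them differ from each other by a few bases only. Capitals mark the seed. The first group has the seed AAAGTGC, which none of the other listed sequences carries. It holds 10 members, of which 6 are printed, the most abundant one of each miRNA and the mature miR-106b-5p.
miR-17-5p: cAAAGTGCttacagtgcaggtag
miR-20a, 23 nt: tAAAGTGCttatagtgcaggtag
miR-106a, 23 nt: aAAAGTGCttacagtgcaggtag
miR-93: cAAAGTGCtgttcgtgcaggtag
miR-106b-5p, 21 nt, mature: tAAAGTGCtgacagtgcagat
miR-106b-5p, 22 nt: tAAAGTGCtgacagtgcagata
The second group is miR-19b, with the seed GTGCAAA.
miR-19b: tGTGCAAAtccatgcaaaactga
The third group is miR-106b-3p, from the opposite arm of the mir-106b hairpin. Its 7 members start at 3 different bases, so that they carry 3 different seeds.
miR-106b-3p, 22 nt, mature: cCGCACTGtgggtacttgctgc
miR-106b-3p, start 1 base earlier: aCCGCACTgtgggtacttgctg
miR-106b-3p, start 2 bases earlier: tACCGCACtgtgggtacttgct

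The remaining members are forms of the same miRNAs that differ in length at the 3' end (isomiRs). They comprise miR-20a of 24 nt, miR-93 of 22 and 24 nt, miR-106b-5p of 20 nt, miR-19b of 22 nt, miR-106b-3p of 19, 20 and 21 nt with the mature start, and another 21 nt form that starts 1 base earlier. In the list 7 members were named as mature miRNAs and 12 by their hairpin only, and 6 had a porcine name. miR-17-5p and miR-106a differed by 1 mismatch, so a misread base can move a read from one to the other. Counting by exact match keeps them apart otherwise. In the RefSeq gene table for Sscrofa11.1, MIR17, MIR18A, MIR19A, MIR20A, MIR19B-1 and MIR92A-1 followed each other on chromosome 11, and MIR363-1, MIR92A-2, MIR19B-2, MIR20B-1, MIR18B and MIR106A on chromosome X. The miR-19b sequences name both of their hairpins and could come from either chromosome. mir-93 and mir-106b had no match in that table.

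The family was of moderate to low abundance. miR-20a of 23 nt was by far the most sequenced member, with a mean of 656 CPM, rank 83 of all listed sequences, and 55.1% of all family reads. The 21 nt form of miR-106b-3p with the mature start followed with 159 CPM (rank 170), and miR-19b with 76.2 CPM (rank 230). miR-93 averaged 48.1 CPM and miR-17-5p 42.9 CPM, whereas miR-106a stood at rank 781 with 4.33 CPM. These are levels of reads, and preferences of ligation between sequences were not corrected. By the authors' read filter, recomputed here as at least 10 reads in at least 4 libraries of a group (3 in CD12), 9 of 19 members passed in all 6 groups, and every member passed in at least 1 group. Reads of 17 members were found in all 30 libraries. One form of miR-106b-3p, the 21 nt one that starts 1 base earlier, passed in PD20 only, so that it was bound to be high there. The rarest forms rest on few reads, and no member was dropped from the tests.

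In the whole list, 1 library of CD20 stood apart. Over 537 other listed sequences that averaged 10 CPM or more, the deviations of CD20 replicate 1 from the mean of all libraries had an SD of 1.32 on the log2 scale, above the next library (CD16 replicate 3, 1.03). CD20 replicate 2, with an SD of 0.977, did not stand apart by this measure, being below CD16 replicate 3, CD12 replicate 2 (0.996) and PD20 replicate 3 (0.980). Replicates 1 and 2 had the highest miR-17-5p and miR-20a levels of all 30 libraries, and the main results on CD20 are also given without both. That omission was chosen from these levels after they had been seen, and it leaves 3 libraries of CD20. Libraries were sequenced in 3 pools, no label assigns a library to a pool, and a part of the pools in these differences was not tested.

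**Figure D1:**
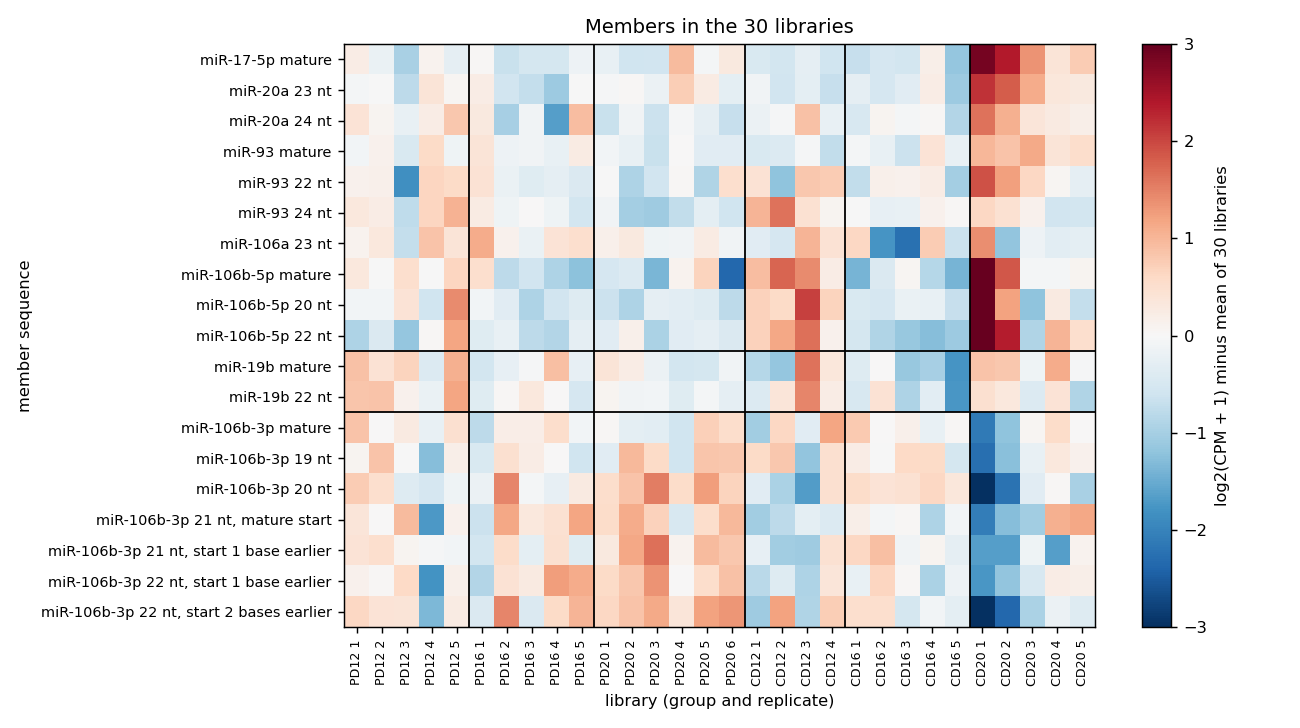
Heat map of the 19 members (rows, grouped by seed and arm) in the 30 libraries (columns, by group), as log2(CPM + 1) minus the mean of the 30 libraries, with colours limited to 3 units up or down. The AAAGTGC rows are high in CD20 replicates 1 and 2, except that of miR-106a in replicate 2 (1.06 CPM) and that of miR-93 of 24 nt. The latter reached at most 7.57 CPM in CD20 and 16.4 CPM in CD12. The miR-106b-3p rows are low in both of these libraries, and the miR-106b-5p rows are higher in CD12 than in CD16.

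The first question was how the family differs between days of the estrous cycle. In CD20, miR-17-5p was about 5 times as abundant as in CD12 and CD16, and its sister miR-20a about 3 times, with every CD20 library above every CD12 and CD16 library for both. Only miR-17-5p passed the test against CD12, and miR-17-5p and the 22 nt form of miR-106b-5p passed it against CD16. All 10 AAAGTGC members had a positive log2 fold change (log2FC) in CD20 vs. CD16. Between CD12 and CD16 no member passed.

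miR-17-5p, the founder of the family, gave 23.6, 22.04, 26.8 and 21.02 CPM in CD12 (mean 23.4 ± 2.52, SD, n = 4). In CD16 it gave 19.9, 22.6, 21.7, 36.6 and 13.96 CPM (22.9 ± 8.35, n = 5). In CD20 it gave 244, 174.5, 83.8, 42.9 and 55.7 CPM (120 ± 86.2, n = 5). All CD20 libraries lay above all libraries of the other cyclic days, but they spread over more than a 5-fold range, replicates 1 and 2 being the highest. miR-17-5p rose by a log2FC of 2.36 in CD20 vs. CD12 (SE 0.51, adjusted p = 0.0120 in the joint F-test of both days) and of 2.32 in CD20 vs. CD16 (SE 0.47, adjusted p = 0.0251). Each comparison called 0.458% of all listed sequences, in these cases 1 and 2 members of the family. Both use the same CD20 libraries and are not independent. Without CD20 replicates 1 and 2 the log2FC was 1.30 (adjusted p = 0.167) and 1.33 (adjusted p = 0.597), and 0.0% of the sequences were called, although the 3 remaining libraries (60.8 ± 20.9 CPM) were still above all of CD12 and CD16. Leaving out CD20 replicate 2 alone ended the call against CD12 (log2FC 2.15, adjusted p = 0.0678), as 1 of 14 single omissions. The call against CD16 was lost in 6 of 14, including the omission of CD20 replicate 1 (log2FC 1.93, adjusted p = 0.0646) or replicate 2 (log2FC 2.19, adjusted p = 0.0577) and of CD16 replicates 1, 2, 3 or 5, and its adjusted p reached 0.104.

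miR-20a, encoded beside miR-17 and identical to it in seed, gave 523, 379, 458 and 348 CPM in CD12 (427 ± 78.7). In CD16 it gave 463.5, 394.9, 442, 660.1 and 261.6 CPM (444 ± 144). In CD20 it gave 2548, 1980.1, 1219, 713 and 689.9 CPM (1430.04 ± 815). Again no CD20 library overlapped with the other cyclic days, and the order of the CD20 libraries resembled that of miR-17-5p. The log2FC was 1.73 vs. CD12 (SE 0.45, adjusted p = 0.0526) and 1.61 vs. CD16 (SE 0.41, adjusted p = 0.0957), so miR-20a of 23 nt missed the threshold in both. Without the 2 libraries the values were 0.95 and 0.90.

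**Figure D2:**
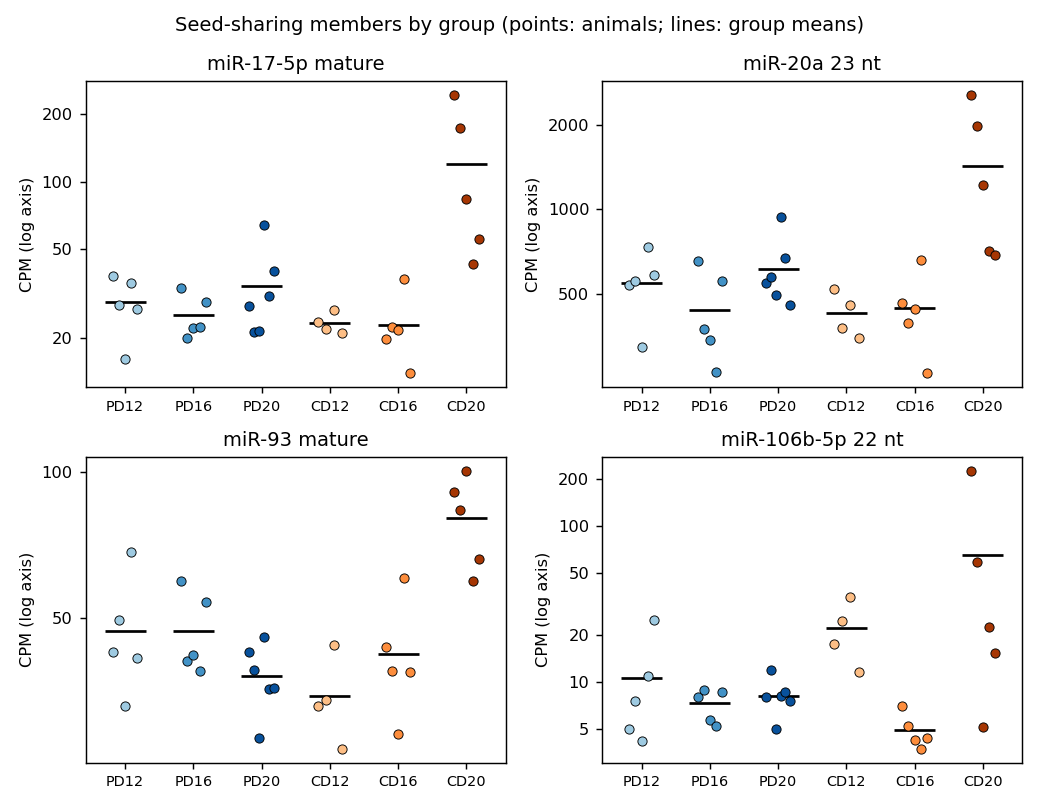
Normalized reads (CPM, log axis) of miR-17-5p, miR-20a of 23 nt, miR-93 and the 22 nt form of miR-106b-5p in the 6 groups, 1 point per animal, with a line at each group mean. CD20 is highest on average in all 4 panels, with the widest spread for miR-106b-5p, from 5.1 to 225 CPM.

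miR-93, which lies with miR-106b and miR-25 in another cluster of the family, gave 32.9, 33.8, 44.0 and 26.8 CPM in CD12 (34.4 ± 7.14). In CD16 it gave 43.6, 38.8, 28.8, 60.3 and 38.7 CPM (42.0 ± 11.5). In CD20 it gave 90.9, 83.5, 100.5, 59.6 and 66.2 CPM (80.1 ± 17.03). CD20 did not overlap with CD12, whereas 1 CD16 library exceeded the lowest CD20 library. Here replicates 1 and 2 were not the extremes, since replicate 3 was the highest. The log2FC was 1.21 vs. CD12 (SE 0.38, adjusted p = 0.121) and 0.85 vs. CD16 (adjusted p = 0.163), and without the 2 libraries it was 1.05 and 0.76. The 22 nt form, which is the bovine mature sequence, was rare, with 1.3 to 8.1 CPM in CD12, 1.6 to 5.1 CPM in CD16 and 18.6, 11.3, 7.0, 4.5 and 3.3 CPM in CD20, so that all 3 days overlapped. Its log2FC in CD20 vs. CD16 was 1.24 (SE 0.57, adjusted p = 0.211), and 0.37 without CD20 replicates 1 and 2.

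The arms of mir-106b, both cut from 1 hairpin, are given in turn. The 22 nt form of miR-106b-5p, 1 base longer than the mature form, gave 17.5, 24.6, 34.9 and 11.5 CPM in CD12 (22.1 ± 10.05) and 7.0, 5.2, 4.2, 3.7 and 4.4 CPM in CD16 (4.90 ± 1.28). In CD20 it gave 225, 58.2, 5.1, 22.3 and 15.2 CPM (65.2 ± 91.7). CD20 replicate 3 lay within the range of CD16, so the groups overlapped, and a single library held most of the CD20 mean. This form rose in CD20 vs. CD16 (log2FC 3.64, SE 0.77, adjusted p = 0.0258), and the call was lost without CD20 replicate 1 (log2FC 2.30, adjusted p = 0.134), without replicate 2, without any one of the CD16 libraries, and without both (log2FC 1.43, adjusted p = 0.597). Against CD12 its log2FC of 1.58 turned to -0.69 without both libraries. The level in CD16 was below that in CD12 in every library (log2FC -2.06, SE 0.76), at an adjusted p of 0.0526 in the joint test. CD16 vs. CD12 called 0.115% of all sequences, none of them a member.

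The mature 21 nt form of miR-106b-5p had the same order of groups, with 12.1, 21.8, 17.2 and 7.0 CPM in CD12, 1.6 to 6.1 CPM in CD16 and 67.0, 24.0, 5.6, 5.6 and 6.2 CPM in CD20. Its log2FC was -2.10 in CD16 vs. CD12 (adjusted p = 0.121) and 2.70 in CD20 vs. CD16 (adjusted p = 0.0957). The latter was 0.78 without CD20 replicates 1 and 2 (adjusted p = 0.727), and CD20 vs. CD12 was then -1.39. Together with the forms of 20 and 22 nt, 3 members had no overlap between CD16 and CD12, all 3 being lower in CD16, and 5.5% of all sequences had non-overlapping groups in that comparison.

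miR-106b-3p, the other arm of the same hairpin, had another pattern of values. Its most abundant form (21 nt, mature start) gave 65.2, 77.1, 109.5 and 101.8 CPM in CD12, 70.5 to 153 CPM in CD16, and 31.4, 55.0, 64.7, 285 and 303.3 CPM in CD20 (148 ± 134). CD20 thus held both the lowest and the highest libraries of the cycle, the low ones being replicates 1 to 3. The log2FC of CD20 vs. CD16 was 0.12 (SE 0.52), and 0.74 without CD20 replicates 1 and 2 (adjusted p = 0.686). Of the 7 miR-106b-3p members, which are forms of 1 arm and not independent, 6 had a negative log2FC (median -0.86), where 48.8% of all sequences had a positive one. Without CD20 replicates 1 and 2 the median was -0.22, again with 1 member positive. Without the form that passed the read filter in PD20 only, the medians were -0.75 with all libraries and -0.15 without the 2. The form of 20 nt, picked after its values had been seen, was lower in every CD20 library (1.9 to 28.96 CPM) than in every CD16 library (35.9 to 44.0 CPM), with a log2FC of -1.58 (SE 0.55, adjusted p = 0.111), or -0.96 without the 2 libraries (adjusted p = 0.637).

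miR-19b, which carries its own seed, gave 36.2, 29.2, 205.7 and 84.1 CPM in CD12 (88.8 ± 81.7). It reached 39.6 ± 18.9 CPM in CD16 (18.7 to 66.6 CPM), and in CD20 it gave 121, 117, 60.5, 145.3 and 64.8 CPM (102 ± 37.3). CD12 held the highest library of the cycle and CD16 the lowest, and the highest CD16 library exceeded 2 of the CD20 libraries. The log2FC of CD20 vs. CD16 was 1.27 (SE 0.51, adjusted p = 0.163), and 1.12 without CD20 replicates 1 and 2. The 22 nt form gave 0.45. miR-106a was rare, with reads worth 0 and 0.37 CPM in 2 libraries of CD16 and a single value above 10 CPM in CD20 replicate 1 (11.4 CPM). Its log2FC of CD20 vs. CD16 was 0.37 (SE 0.77, adjusted p = 0.802), and it turned to -0.17 without CD20 replicates 1 and 2.

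Summarized by seed, 10 of 10 AAAGTGC members were on the positive side in CD20 vs. CD16, with a median log2FC of 1.42, beside -0.03 for all listed sequences, of which 48.8% were positive. These members are forms of miR-17, miR-20a, miR-93, miR-106a and miR-106b-5p counted in the same libraries. Counts of members, here and below, are therefore not counts of independent items. In CD20 vs. CD12 the count was 8 of 10 and the median 0.69, beside 0.09 and 54.2%. Without CD20 replicates 1 and 2 the count fell to 7 of 10 in CD20 vs. CD16 (median 0.64) and to 4 of 10 in CD20 vs. CD12 (median -0.49). Of all 19 members, 11 had an unadjusted p under 0.05 in CD20 vs. CD16, 9 higher and 2 lower, where 12.6% of all sequences were higher at that threshold and 8.59% lower. Without CD20 replicates 1 and 2, 3 members reached that threshold, among 65 of all listed sequences. The likelihood ratio test of edgeR and DESeq2 called 4 and 7 members over the 3 comparisons within the cycle, but they also called more of all sequences, 5.27 and 5.84% in CD16 vs. CD12, 5.73 and 6.41% in CD20 vs. CD12, and 6.41 and 8.25% in CD20 vs. CD16. CD20 libraries did not overlap with those of CD16 in 4 members (4.93% of all sequences) and with those of CD12 in 3 (4.47%).

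Reads on the AAAGTGC members made up 0.205 ± 0.144% of all listed reads in CD20, 0.0494 ± 0.0168% in CD12 and 0.0541 ± 0.0199% in CD16. The CD20 libraries gave 0.424, 0.270, 0.158, 0.0916 and 0.0811%, and the last 2 lay within the range of the pregnant groups (0.0331 to 0.137%). The lowest CD20 library also lay below CD16 replicate 4 (0.0862%). In pregnancy the share was 0.0740 ± 0.0266% in PD12, 0.0573 ± 0.0214% in PD16 and 0.0719 ± 0.0342% in PD20. Since miR-20a supplies most of these reads, the share mainly reports on miR-20a. Being measured in whole tissue, it cannot tell fewer cells of a type from less RNA per cell.

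The listed miR-17-5p sequence held a minor part of the reads of this miRNA. Of 9127 deposited reads with its first 17 bases, 36.4% were the listed sequence, compared with 78.7% for miR-20a, 51.7% for miR-93, 74.9% for miR-19b, 78.9% for miR-106b and 77.8% for miR-106a. When all reads with these 17 bases were counted, CD20 gave 524, 392, 186, 209 and 188 CPM (299.8 ± 152). CD12 gave 65.7, 54.3, 146.4 and 51.5 CPM (79.5 ± 45.0) and CD16 61.5 ± 16.98 CPM. Pregnant groups averaged 82.7 ± 10.9 (PD12), 88.3 ± 30.3 (PD16) and 109 ± 30.8 CPM (PD20), and their highest library reached 146.3 CPM. Every CD20 library was therefore above every other library when unlisted forms were included, also replicates 3 to 5. The counts of all reads were not tested for miR-17. Another fit summed the listed isomiRs by miRNA (250 features), without unlisted reads. miR-17 has a single listed sequence, so its values there are a refit of that sequence among fewer features. The log2FC of miR-17 was 2.25 vs. CD12 (adjusted p = 0.00337) and 2.34 vs. CD16 (adjusted p = 0.00907). miR-20a passed as well with 1.59 (adjusted p = 0.0404) and 1.63 (adjusted p = 0.0381). Summed miR-106b-5p passed in CD16 vs. CD12 (-2.02, adjusted p = 0.0404), CD20 vs. CD16 (2.94, adjusted p = 0.0148) and PD20 vs. CD20 (-2.35, adjusted p = 0.0394), the last together with miR-17 (-1.58, adjusted p = 0.0394). Of all summed features 1.2% were called in CD16 vs. CD12, 2.0% in CD20 vs. CD12, 4.0% in CD20 vs. CD16 and 7.2% in PD20 vs. CD20. Omission of CD20 replicates 1 and 2 left shares of 0.4, 0.8, 0.0 and 0.4%, and every call named here that involves CD20 was lost. miR-17 then gave 1.19 vs. CD12 (adjusted p = 0.104), 1.29 vs. CD16 (adjusted p = 0.225) and -0.73 in PD20 vs. CD20 (adjusted p = 0.444). miR-20a gave 0.82 vs. CD12 (adjusted p = 0.321) and 0.85 vs. CD16 (adjusted p = 0.649), and miR-106b-5p gave 0.79 in CD20 vs. CD16 (adjusted p = 0.649) and -0.47 in PD20 vs. CD20 (adjusted p = 0.578). Summed miR-106b-5p then had a log2FC of -1.23 in CD20 vs. CD12, which passed in the joint test that also holds CD16 (adjusted p = 0.0209), and its log2FC with all libraries was 0.92.

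**Figure D3:**
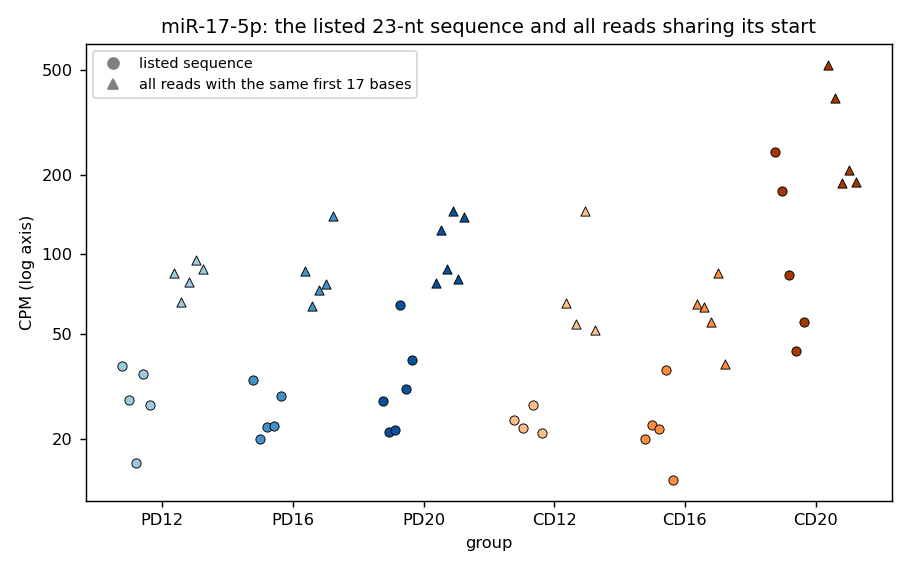
Normalized reads (CPM) of miR-17-5p in each library by group, as the listed 23 nt sequence (circles) and as all reads that share its first 17 bases (triangles). With all reads counted, the 5 CD20 libraries lie between 186 and 524 CPM and the other 25 at or below 146.4 CPM.

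The second question was whether the family changes over early pregnancy, when conceptuses attach. No member passed the test. There were 0 calls among the 19 members in PD16 vs. PD12, PD20 vs. PD12 or PD20 vs. PD16, where 0.229, 0.802 and 0.573% of all sequences were called. At an unadjusted p under 0.05 there were 4 members in the joint test of both days against PD12 (18.7% of all sequences) and 1 in PD20 vs. PD16 (14.2%). The likelihood ratio test of edgeR, which called 2.75, 5.27 and 2.41% of all sequences, and DESeq2, which called 2.86, 5.27 and 1.72%, also called 0 members.

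miR-17-5p gave 37.8, 28.2, 16.2, 35.3 and 26.9 CPM in PD12 (28.9 ± 8.47) and 33.4, 20.0, 22.2, 22.3 and 29.02 CPM in PD16 (25.4 ± 5.59). In PD20 it ranged from 21.3 to 64.1 CPM with a median of 29.4 (34.3 ± 16.1, n = 6). The days overlapped widely, and only PD20 replicate 4 exceeded 40 CPM. The log2FC was -0.12 for PD16 vs. PD12, 0.26 for PD20 vs. PD12 (adjusted p = 0.690) and 0.38 for PD20 vs. PD16 (adjusted p = 0.606). miR-20a stayed between 264 and 936 CPM in all 16 pregnant animals, and miR-93 averaged 46.9 ± 13.3 CPM in PD12, 46.9 ± 9.20 in PD16 and 37.8 ± 6.10 in PD20. The 22 nt form of miR-106b-5p gave 5.0, 7.6, 4.2, 10.8 and 25.01 CPM in PD12 and 7.25 ± 1.69 CPM in PD16, near its level in PD20, and 1 library of PD12 stood above all other pregnant animals. For the abundant 21 nt form of miR-106b-3p the ranges were 40.01 to 259 CPM in PD12, 85.7 to 308 in PD16 and 96.6 to 290.4 in PD20, and for its mature form 21.4 to 45.7, 14.03 to 36.1 and 16.1 to 41.2 CPM. miR-19b was 102 ± 34.8 CPM in PD12, 68.7 ± 31.8 in PD16 and 62.3 ± 16.7 in PD20, a log2FC of -0.67 for PD20 vs. PD12 that did not pass (adjusted p = 0.361). The 10 AAAGTGC members had median log2FC of -0.29, -0.38 and -0.16 in the 3 comparisons, beside 0.05, -0.01 and -0.06 for all sequences.

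The third question was how pregnant and cyclic endometrium differ on each day. On D12 and D16 no member was called, and 0.0% of the 872 sequences tested were called either. Unadjusted p under 0.05 was found for 1 member on D12 (mature miR-106b-5p, log2FC -0.97, adjusted p = 0.677; 53 sequences in all, 6.08%) and for 0 on D16 (95 in all, 10.9%). DESeq2 called 0 sequences on D12 (0.0%) and 7 on D16 (0.803%), and the likelihood ratio test 1 (0.115%) and 5 (0.573%), none of them a member. miR-17-5p differed by 0.33 on D12 (adjusted p = 0.819) and by 0.13 on D16 (adjusted p = 0.926), on the log2 scale.

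On D20 the AAAGTGC members and miR-106b-3p had log2FC of opposite sign. All 10 AAAGTGC members were lower in PD20 than in CD20 (median log2FC -1.37, beside -0.03 for all sequences, of which 48.6% were positive), and all 7 miR-106b-3p members were higher (median 1.496). Without the 21 nt form that passed the read filter in PD20 only, 6 of 6 were higher with a median of 1.28, and the direction of the omitted form was set by the filter. Of all members 1 passed the test, the 22 nt form of miR-106b-5p, where 1.49% of all sequences were called. Unadjusted p under 0.05 was reached by 8 members on the lower side, all with the AAAGTGC seed, and 4 on the higher side, all miR-106b-3p (3 without that form), while 15.2% of all sequences were lower and 13.3% higher at that threshold. Without CD20 replicates 1 and 2 the medians were -0.43 and 0.91, 9 of 10 AAAGTGC members remained lower, 5 of 7 miR-106b-3p members higher (4 of 6 with a median of 0.69 without that form), and no member was called (0.229% of all sequences). Unadjusted p under 0.05 was then reached by 1 AAAGTGC member and 3 miR-106b-3p members (2 without that form), among 99 of all sequences. The likelihood ratio test and DESeq2 called 11 members each on D20 (10 without that form), where they called 14.2 and 15% of all sequences. This comparison shares the CD20 libraries with those within the cycle. Of the 6 miR-106b-3p forms kept, the shortest and the 22 nt one that starts 1 base earlier also passed the read filter in PD20 but not in CD20. Of the groups compared, they thus passed in the higher one alone, and they were kept in these counts.

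The called form, miR-106b-5p of 22 nt, ranged from 5.0 to 11.8 CPM in PD20 (8.15 ± 2.20, n = 6), against 5.1 to 225 CPM in CD20. It fell by 3.00 on the log2 scale (SE 0.71, adjusted p = 0.0486), and without the 2 libraries the log2FC was -0.77 (adjusted p = 0.499). The call was lost in 7 of 11 single omissions, those of CD20 replicates 1 (log2FC -1.59, adjusted p = 0.145) and 2 and of PD20 replicates 1, 2, 3, 5 and 6. The overlap came from CD20 replicate 3 (5.1 CPM), and each other CD20 library was above all of PD20. miR-17-5p had a log2FC of -1.80 in PD20 vs. CD20 (SE 0.47, adjusted p = 0.0519), and 5 of 6 PD20 libraries were below all CD20 libraries, but it missed the threshold and fell to -0.77 without the 2 libraries.

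miR-93 did not overlap between pregnancy and cycle on D20, with or without the 2 libraries. PD20 gave 28.3 to 45.6 CPM (median 37.4, mean 37.8 ± 6.10), and no PD20 library reached the lowest CD20 library of 59.6 CPM. The log2FC was -1.07 (SE 0.30, adjusted p = 0.0599), and -0.94 without the 2 libraries (adjusted p = 0.271). The 24 nt form of miR-20a had no overlap either (log2FC -1.42, SE 0.42, adjusted p = 0.0630), whereas 5 of 6 PD20 libraries of the abundant 23 nt form (455 to 936 CPM) were below all CD20 libraries (log2FC -1.21, SE 0.39, adjusted p = 0.0665). The 24 nt form passed the read filter in PD12 and CD20 only, so of the groups compared it passed in the higher one alone. Without the 2 libraries the log2FC was -0.75 for the 24 nt form and -0.45 for the 23 nt form. In all, 4 members had non-overlapping groups, 2 lower and 2 higher, where 4.81% of all sequences did.

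**Figure D4:**
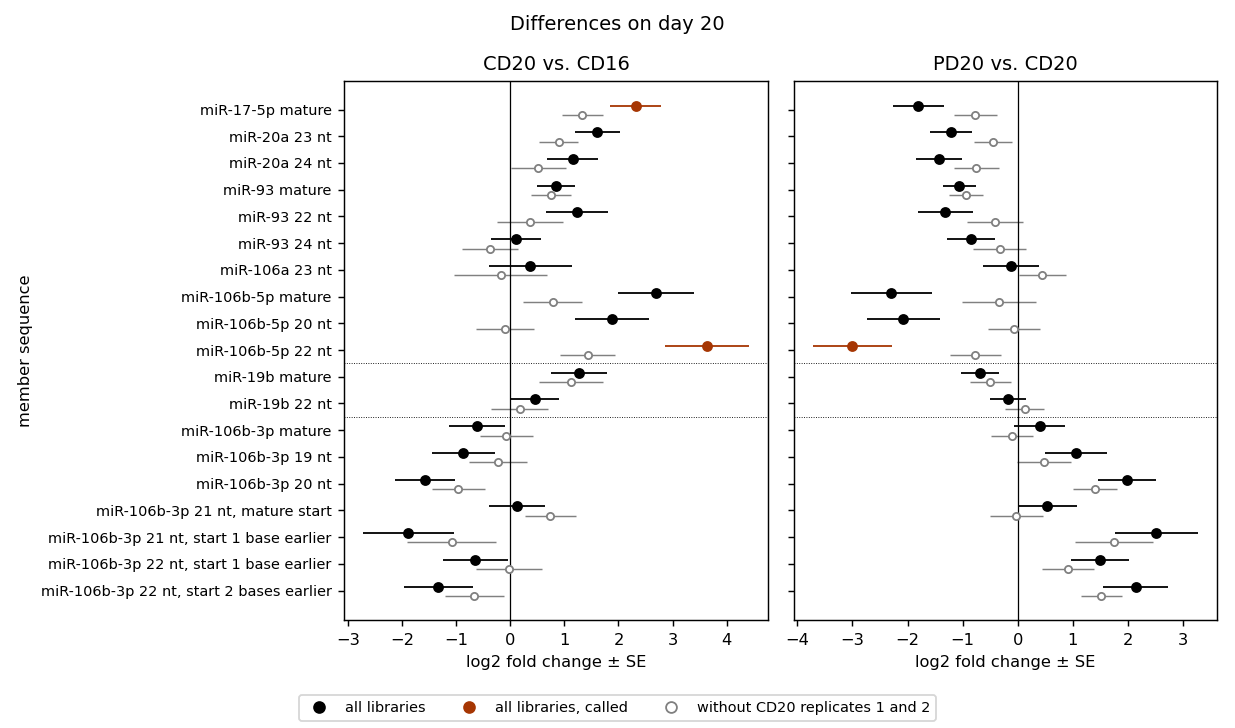
Log2 fold change with its SE for each of the 19 members in CD20 vs. CD16 (left) and PD20 vs. CD20 (right), with all libraries (filled, called members in red-brown) and without CD20 replicates 1 and 2 (open, grey). AAAGTGC members lie right of 0 in the left panel and left of 0 in the right panel, most of them move toward 0 in the open points, and no open point is a called member.

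The other 2 members without overlap were forms of miR-106b-3p, both described after their values had been seen. The 20 nt form gave 1.9, 5.3, 21.9, 28.96 and 13.8 CPM in CD20 and 40.8 to 82.7 CPM in PD20 (log2FC 1.98, SE 0.53, adjusted p = 0.0553). The form that starts 2 bases earlier and so has another seed gave 0.38, 3.9, 12.1, 21.2 and 18.1 CPM in CD20 and 31.2 to 62.3 CPM in PD20 (log2FC 2.14, SE 0.59, adjusted p = 0.0581). CD20 replicate 1 was the lowest for both, yet the remaining 3 CD20 libraries also stayed below all of PD20, with log2FC of 1.40 (adjusted p = 0.249) and 1.52 (adjusted p = 0.156). The mature form did not share this, with 4.9 to 36.8 CPM in CD20 and 16.1 to 41.2 CPM in PD20 (log2FC 0.40, and -0.10 without the 2 libraries), nor did the abundant 21 nt form (log2FC 0.54, and -0.02 without them). Differences between these forms were not tested.

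Whether the difference between pregnancy and cycle itself depends on the day was tested in 1 fit of all 30 libraries. Between D20 and D16 the difference P vs. C changed by -1.96 for miR-17-5p (SE 0.54, adjusted p = 0.0452) and by -3.55 for the 22 nt form of miR-106b-5p (SE 0.86, adjusted p = 0.0431), the 2 members called among 2.41% of all sequences. All 10 AAAGTGC members were on the negative side (median -1.53, beside -0.11 for all sequences, of which 46.2% were positive). Without CD20 replicates 1 and 2 the values were -0.93 (adjusted p = 0.445) and -1.29 (adjusted p = 0.445), and 0.0% of the sequences were called. Of 30 single omissions, the call of miR-17-5p held in 6 and that of miR-106b-5p in 17, and both were lost without CD20 replicate 1 (for miR-106b-5p -2.16, adjusted p = 0.157) and without replicate 2. Between D20 and D12 miR-17-5p changed by -2.12 (SE 0.57, adjusted p = 0.0694), where no member was called (0.115% of all sequences). Between D16 and D12 no member was called, among 0.0% of all sequences.

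The arms of mir-106b were also set against each other within each library, as log2 of the ratio of mature miR-106b-5p to mature miR-106b-3p reads, which does not depend on library scaling. The ratio was 3.72, 1.22, -2.18, -2.66 and -1.99 in CD20, and 0.07, -0.83, -0.19 and -3.01 in CD12. It averaged -3.21 ± 1.02 in CD16, -2.02 ± 0.33 in PD12, -2.78 ± 1.22 in PD16 and -2.97 ± 1.71 in PD20. CD20 replicates 1 and 2 were the only ones with clearly more 5p than 3p, and the remaining CD20 libraries were within the range of the other groups. In two-sided exact permutation tests CD20 vs. CD16 differed by 2.83 (p = 0.0397, adjusted p = 0.25 over the 9 comparisons, n = 5 and 5), CD16 vs. CD12 by -2.22 (p = 0.0556, adjusted p = 0.25) and PD20 vs. CD20 by -2.59 (p = 0.0887, adjusted p = 0.266), so none passed. The smallest p possible was 0.00794 with 5 libraries on each side. Without the 2 libraries CD20 vs. CD16 was 0.93 in the exact permutation test (p = 0.196), and CD20 vs. CD12 turned from 0.61 to -1.29. The outcome depended on the reads counted. With all listed sequences of each arm, CD16 vs. CD12 (-2.27) and PD20 vs. CD20 (-2.95) passed the exact permutation test (adjusted p = 0.0390 each). With all reads that share 17 bases, CD16 vs. CD12 (-2.20, adjusted p = 0.0357), CD20 vs. CD16 (2.70, adjusted p = 0.0476) and PD20 vs. CD20 (-3.03, adjusted p = 0.0357) passed the same exact permutation test. The passes that involve CD20 were lost without replicates 1 and 2. Without replicate 1 alone, those with all reads were kept in the exact permutation test (1.57 in CD20 vs. CD16 and -1.90 in PD20 vs. CD20, adjusted p = 0.0476 each), and PD20 vs. CD20 with all listed sequences was lost (-1.81, adjusted p = 0.0714). Without both, PD20 vs. CD20 was -0.69 for the mature forms (p = 0.595), -0.84 for all listed sequences (p = 0.107) and -0.96 for all reads (p = 0.0714), and CD20 vs. CD16 was 0.63 for all reads (p = 0.0714) in exact permutation tests, where the smallest p possible was 0.0119 and 0.0179.

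**Figure D5:**
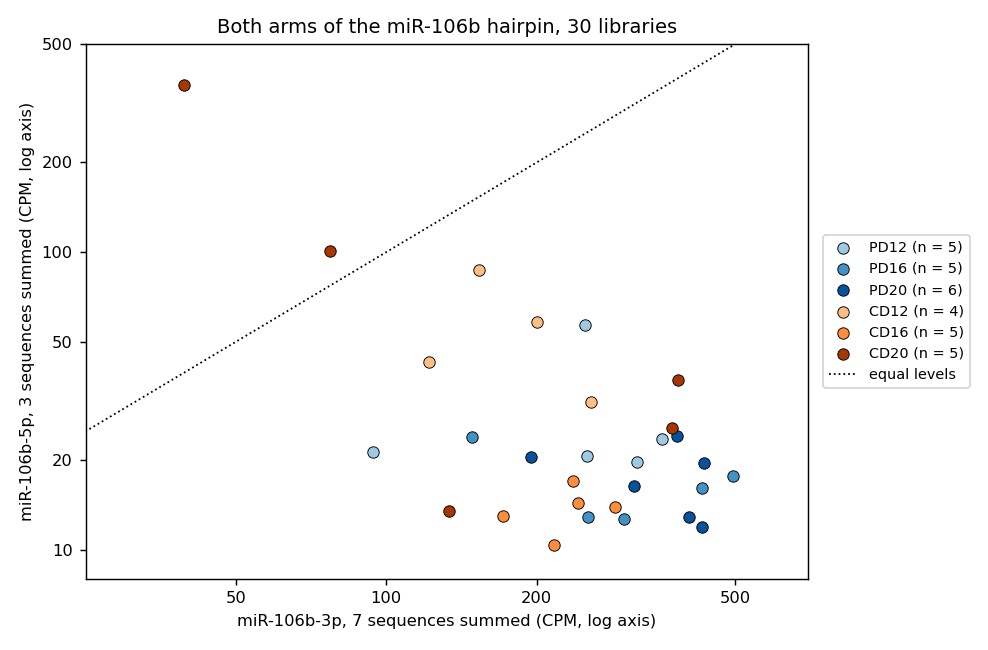
Summed CPM of the listed miR-106b-3p forms against those of the miR-106b-5p forms, 1 point per library (both axes log), with a dotted line at equal levels. CD20 replicate 1 (364 CPM of 5p, 39.4 of 3p) and replicate 2 (101 and 77.2) are the only points on the 5p side of the line.

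Across all 30 libraries, miR-17-5p went most closely with miR-20a of 23 nt among the members (Pearson r of log2 CPM 0.938, Spearman rho 0.83, and r 0.856 without CD20 replicates 1 and 2), and next with miR-93 (r 0.791 and 0.721). With miR-19b, of which 1 of the 2 possible hairpins lies in the cluster of miR-17, r was 0.292, and with the miR-106b-3p forms it was -0.706 to -0.506. Outside the family, the 3 sequences most like miR-17-5p were ssc-miR-16 (r 0.817, and 0.509 without the 2 libraries), a 21 nt form of ssc-mir-199a-1 (0.785 and 0.616) and ssc-mir-195 (0.778 and 0.506). Those most like miR-20a were ssc-miR-126-3p, an endothelial miRNA (0.857 and 0.737), ssc-miR-16 (0.850 and 0.651) and ssc-mir-195 (0.791 and 0.566). These correlations describe libraries that share their groups and scaling, and those with sequences outside the family were all lower without the 2 libraries.

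The neighbours of the family in its clusters were looked up by the roots mir-92a, mir-25 and mir-363, 12 sequences in all, and none was called in any of the 9 comparisons of groups. ssc-miR-92a, which closes the miR-17 cluster, was 702 ± 343 CPM in CD20 and 485 ± 282 in CD16 (log2FC 0.42, adjusted p = 0.653). bta-miR-25, from the cluster of miR-93 and miR-106b, was 616 ± 299 CPM in CD20 and 926 ± 256 in CD16 (log2FC -0.69, adjusted p = 0.301). ssc-mir-363-1 was rare, with 11.3 ± 9.05 CPM in CD20 (4.58 to 26.9 CPM) and 8.62 ± 3.31 in CD16 (2.83 to 11.03 CPM). miR-25 had a negative log2FC in the comparison in which miR-93 had a positive one, and this difference was not tested.

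The summed levels of leukocyte and endothelial miRNAs were higher in every CD20 library than in every CD12 and CD16 library, and their part in the results was not tested. Of 5 leukocyte roots 4 were found (15 sequences, led by ssc-miR-146a-5p), and mir-223, a defining marker of granulocytes, was not in the list. Their summed level was 565, 391, 503.6, 407 and 333 CPM in CD20, 69.4 to 235.9 CPM in CD16 (145 ± 59.6), 150.5 to 299.7 CPM in CD12 (208 ± 64.8) and 312 ± 116 CPM in PD20. ssc-miR-146a-5p, an NF-kB induced regulator of innate immunity, rose in CD20 vs. CD12 (log2FC 1.25, adjusted p = 0.0446) and vs. CD16 (log2FC 1.88, adjusted p = 0.0251), the 1 of 15 called in each, where 0.458% of all sequences were called. Its log2FC was 1.20 (adjusted p = 0.160) and 1.89 (adjusted p = 0.165) without CD20 replicates 1 and 2. A 24 nt form named mmu-mir-146a fell in PD20 vs. CD20 (log2FC -1.99, adjusted p = 0.0368), and gave -1.998 without them (adjusted p = 0.156). The endothelial root mir-126 (17 sequences, led by ssc-mir-126) summed to 4836, 4381, 4584, 4956 and 4264 CPM in CD20, 1782 to 3363 CPM in CD12 and 2289 to 3879 CPM in CD16, with 0 of 17 called.

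The epithelial list, 34 sequences of 6 roots led by bta-miR-200c, summed to 4458, 6900.12, 10444, 8789 and 8074 CPM in CD20, 12826 ± 3476 CPM in CD16 and 10315 ± 2405 CPM in PD20. CD20 replicate 1 had the lowest epithelial sum of all 30 libraries. In this list 3 forms of miR-205, a keratinocyte miRNA, fell in PD20 vs. CD20 (log2FC -4.86 to -2.92, and -5.02 to -3.05 without CD20 replicates 1 and 2, when 2 of them were called), where 1.49% of all sequences were called with all libraries and 0.229% without the 2, and no other sequence of this list was called in any comparison. Stromal and smooth muscle miRNAs (52 sequences of 5 roots, led by ssc-miR-143-3p) summed to 61187 ± 11224 CPM in CD20, 73271 ± 21554 in CD16 and, with 1 library at 399277 CPM (replicate 1), 48830 to 399277 in PD20, and 1 of them was called, an 18 nt form of ssc-mir-143 in PD20 vs. PD16 (log2FC 1.68), where 0.573% of all sequences were called. For erythrocyte miRNAs (16 sequences of 3 roots, led by ssc-mir-451) the sums were 1076 ± 618 CPM in CD20, 1446 ± 935 in CD16 and 2190.05 ± 1177 in PD20, and 0 were called. In CD12 the sums were 972 ± 427 CPM for erythrocyte, 95360 ± 41601 for stromal and smooth muscle and 8685 ± 2059 for epithelial miRNAs. The 7 embryonic roots were searched by name only and matched no name, which would miss a sequence listed under another name such as a gene identifier, so embryonic miRNAs were not assessed here. The called members of these lists were named after their values had been seen.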

How the data were processed

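Per library, the authors deposited raw counts of reads on each distinct sequence, after joining 2 runs, trimming adapters and discarding short or low-quality reads. These counts were joined by exact match to the sequences of their list, and 0 columns were left without a sample. Names and sequences were taken from that list, its fold changes and p-values were not used, and promoters or hairpins were not used here. The members, the marker lists and the tests were chosen with earlier results of these data known.

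Counts were scaled by TMM and tested by the quasi-likelihood F-test of edgeR 4.0.16 (R 4.3.3): D16 and D20 jointly vs. D12 within pregnancy and within the cycle, D20 vs. D16 alone, P vs. C in 1 fit per day, and the difference of P vs. C between days in 1 fit of all libraries. Benjamini-Hochberg adjusted p-values cover all sequences tested. Calls needed an adjusted p under 0.05 together with a log2FC above 1 in size. The SE is the log2FC divided by the square root of F, and the prior count was 0.125. Arm ratios used a pseudocount of 0.5 reads. p-values measure the spread between animals.

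Described in full are members named as mature miRNAs, called members, and the most abundant sequence of each root and arm. From outside, the 3 sequences most correlated with miR-17-5p and with miR-20a and the most abundant one of mir-92a, mir-25 and mir-363 are given. Marker lists were matched by name root: erythrocyte (mir-451, mir-144, mir-486), leukocyte (mir-142, mir-223, mir-150, mir-155, mir-146a), epithelium (mir-200a, mir-200b, mir-200c, mir-141, mir-429, mir-205), stroma and smooth muscle (mir-143, mir-145, mir-199a, mir-199b, mir-214), endothelium (mir-126) and embryonic (mir-302a, mir-302b, mir-302c, mir-302d, mir-371, mir-372, mir-373). Alternatives were the likelihood ratio test, DESeq2 1.42.0, RLE scaling, all deposited reads as library size, a minimum mean of 10 CPM, all deposited sequences, 1 fit of 30 libraries, isomiRs summed, replicate numbers as a block, single contrasts instead of joint tests, and omission of each library by itself. Scripts were tested on simulated data.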

Additional observations from a re-analysis of the deposited data

Results flagged for a closer look

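Of 126 groups of 4 to 6 libraries examined for a library far from the others, 11 held one, where chance gives about 1 in 20. That rate takes the groups as independent, whereas these share libraries and hold forms of the same miRNAs. An excess over it was not tested. In CD20 replicate 1, miR-106a reached 11.4 CPM (next library 3.26), miR-106b-5p of 20 nt 71.6 CPM (next 19.04) and miR-106b-5p of 22 nt 225 CPM (next 58.2). In CD12 replicate 3, miR-106b-5p of 20 nt reached 34.9 CPM and miR-20a of 24 nt 9.09 CPM. In PD16 replicate 1, mature miR-106b-5p reached 8.72 CPM, miR-93 of 22 nt 6.07 CPM, and the log2 ratio of miR-106b-5p to miR-106b-3p was -0.67 (next library -2.91). In PD16 replicate 2 the 20 nt form of miR-106b-3p stood at 79.6 CPM (next 34.3), in PD16 replicate 4 miR-19b at 124 CPM (next 64.0), and in CD16 replicate 1 mature miR-106b-3p at 43.9 CPM (next 27.8). The difference between pregnancy and cycle departed between D20 and D16 in the interaction test for miR-17-5p (-1.96 on the log2 scale, adjusted p = 0.0452) and miR-106b-5p of 22 nt (-3.55, adjusted p = 0.0431), both lost without CD20 replicates 1 and 2. Outside the list, 33160 reads shared their first 17 bases with a member, beside 91551 reads on the members themselves.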

How the results depend on the processing

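Within pregnancy 0 members were called under every alternative run. Shares of all sequences called follow in the order PD16 vs. PD12, PD20 vs. PD12 and PD20 vs. PD16. They were 0.573, 2.06 and 1.26% in 1 fit of 30 libraries and 0.0, 2.86 and 0.573% with single contrasts. The block gave 0.115, 0.344 and 0.344%, and a minimum of 10 CPM 0.926, 2.04 and 0.741%. When 1 library was left out the share was at most 2.41%. Within the cycle the 2 members called became 4 with the likelihood ratio test, 7 with DESeq2, 4 with all deposited reads as library size (0.229, 0.802 and 0.916% of all sequences in CD16 vs. CD12, CD20 vs. CD12 and CD20 vs. CD16), 6 in 1 fit of 30 libraries (4.01, 5.73 and 7.33%), 0 with the replicate block and 0 without CD20 replicates 1 and 2, and 0 to 4 when 1 library was left out (at most 4.12% of all sequences in any of the 3 comparisons). Counts given as without the form omit the 21 nt miR-106b-3p form that passed the read filter in PD20 only. For P vs. C the 1 member became 11 with the likelihood ratio test (10 without the form), 11 with DESeq2 (10 without the form), 10 in 1 fit of 30 libraries (9 without the form; 11.2% of all sequences), 2 with isomiRs summed, and 0 with a minimum of 10 CPM, with all deposited sequences, with the block and without the 2 CD20 libraries, and 0 to 9 when 1 library was left out, the highest counts being 9 without CD20 replicate 4 (11.9% of all sequences), 8 without CD20 replicate 5 (6.76%) and 8 without PD20 replicate 4 (13.3%), the last 2 counts being 7 without the form. For the interaction the 2 members became 5 with the likelihood ratio test (4 without the form; 5.38% of all sequences for D20 minus D16 and 1.83% for D20 minus D12), 0 with the block, 0 without the 2 libraries and 0 to 4 when 1 library was left out (at most 3.89%). In PD20 vs. CD20, 0 members were called among 0.871% of sequences with a minimum of 10 CPM and 0.261% with all deposited sequences. The block called 0.573% there, and 0.0% in each comparison within the cycle and for the interaction. Without the 2 CD20 libraries the share was 0.229% in PD20 vs. CD20. With library size from all deposited reads, miR-93 was called in D20 minus D12 and miR-17-5p was not called in D20 minus D16. That scaling moved the median log2FC of all sequences from 0.09 to 0.47 in CD20 vs. CD12, from -0.03 to 0.23 in CD20 vs. CD16 and from -0.03 to -0.27 in PD20 vs. CD20, while miR-17-5p gave 2.78, 2.60 and -2.02.

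Of the 77 log2FC examined, those with isomiRs summed included, 10 of 1410 alternative values changed sign. Without CD20 replicates 1 and 2 these were miR-106b-3p of 21 nt (-0.024) and mature (-0.10) in PD20 vs. CD20, miR-106b-5p of 20 nt in CD20 vs. CD16 (-0.10) and miR-106b-5p of 22 nt in CD20 vs. CD12 (-0.69), and with isomiRs summed miR-106b-5p in CD20 vs. CD12 (-1.23), miR-106a in CD20 vs. CD16 (-0.17) and miR-106b-3p in CD20 vs. CD16 (0.28). miR-106b-3p 21 nt starting CCGC in CD20 vs. CD16 gave -0.33 with the block and -0.31 to 0.44 when 1 library was left out. The 77 do not cover every member in every comparison. Outside them, more signs changed without CD20 replicates 1 and 2. Among these were miR-106a (-0.17) and miR-93 of 24 nt (-0.38) in CD20 vs. CD16, and miR-106a (0.44) and miR-19b of 22 nt (0.13) in PD20 vs. CD20.

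The arm ratio passed the exact permutation test with all listed sequences of each arm in CD16 vs. CD12 (-2.27, adjusted p = 0.0390) and PD20 vs. CD20 (-2.95, adjusted p = 0.0390), and with all reads sharing 17 bases in CD16 vs. CD12 (-2.20, adjusted p = 0.0357), CD20 vs. CD16 (2.70, adjusted p = 0.0476) and PD20 vs. CD20 (-3.03, adjusted p = 0.0357). PD16 vs. CD16 turned to -0.14 and -0.12 under these, CD20 vs. CD12 without the 2 CD20 libraries to -1.29, to -1.71 with all listed sequences and to -1.57 with all reads, and PD20 vs. PD16 to 0.45 with the block. Leaving out 1 library gave -0.51 to 0.45 for PD20 vs. PD16, -0.10 to 0.69 for PD16 vs. CD16 and -0.42 to 1.18 for CD20 vs. CD12. Counting all reads with 17 shared bases can only raise the share of AAAGTGC reads, which was then 0.286% in CD20, 0.0731% in CD16 and 0.0742% in CD12, and in pregnancy 0.102% (PD12), 0.0833% (PD16) and 0.102% (PD20). Except where a setting uses fewer libraries or sequences, the cause was not tested.

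The replicate numbers did not pair the animals: over 70 pairs of libraries with the same number in 2 groups, deviations from the group means had a median r of -0.036 (-0.695 to 0.71, 17 over 0.1), beside 0.004 for other pairs. Members with under 10 CPM rest on few reads per library, which limits what could be called for miR-106a and the rarer isomiRs.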
